A study of Homo sapiens with 6 samples.

Results

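Small leucine-rich proteoglycans are a family of secreted proteins of the extracellular matrix, the fibrous material around connective tissue cells. The 8 genes described here are DCN (decorin), LUM (lumican), BGN (biglycan), FMOD (fibromodulin), OGN (osteoglycin), ASPN (asporin), PRELP and PODN (podocan), taken by symbol from a table of 59050 entries. All 8 were found in the table, and 7 of them reached the filter used for testing, a mean of at least 1 TPM (a transcript level corrected for transcript length and library size, on a scale that gives every library nearly the same sum) over the 6 libraries. OGN did not reach it, and PRELP reached it through its DMSO libraries alone.

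The libraries are bulk RNA-seq of HFF, human foreskin fibroblasts, into which a vector for ER:RAS had been introduced at about passage 18. ER:RAS is H-RAS with the activating G12V change fused to the hormone-binding part of the oestrogen receptor, so that 4-hydroxytamoxifen (4-OHT) activates it. Cells of the 4-OHT group (3 libraries) received 100 nM 4-OHT and were harvested in oncogene-induced senescence after 1 week, and cells of the DMSO group (3 libraries) are labelled with DMSO, whose harvest time is not given in the sources used here. Cells carrying the vector were selected with 200 µg/ml neomycin, and no group received 4-OHT without the fusion, so effects of the drug and of RAS cannot be told apart. Oncogene-induced senescence is a lasting arrest of cell division in which the cell keeps working and secreting.

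Each of these proteins is built around a row of leucine-rich repeats that form a curved solenoid, which can lie along collagen fibrils and limit their thickness. Decorin and biglycan carry chains of chondroitin or dermatan sulfate, while lumican, fibromodulin and osteoglycin can carry keratan sulfate. In connective tissue the family is known for spacing collagen fibrils, for holding growth factors of the TGF-beta family in the matrix, and, for decorin and biglycan, for acting on receptors of the cell surface. Fibroblasts are a main source of decorin and lumican.

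The genes lie mostly in groups on the chromosomes, which are given here from GENCODE 29 on GRCh38. LUM (chromosome 12, 91102629 to 91111831) and DCN (chromosome 12, 91140484 to 91183123) are neighbours on the minus strand, beside KERA and EPYC of the same family. OGN (chromosome 9, 92383967 to 92404696) and ASPN (chromosome 9, 92456205 to 92482506) lie on the minus strand with OMD and ECM2. FMOD (chromosome 1, 203340628 to 203351758, minus strand), PRELP (chromosome 1, 203475828 to 203491352, plus strand) and OPTC lie together, and PODN (chromosome 1, 53062052 to 53085502) and BGN (chromosome X, 153494939 to 153509554) stand apart from those groups. The chromosome 9 group lies inside CENPP, a centromere protein gene on the other strand, with which OGN and ASPN share 0 exon bases. CENPP stood at 1.01 ± 0.732 against 4.15 ± 0.536 TPM, and its part in the ASPN row was not tested, since the strand setting of the counting is not given in the sources used here.

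The promoters of PRELP, ASPN and BGN are shown because PRELP fell most of the 8 genes, ASPN was the called gene with the lowest DMSO level, and BGN was the tested gene that did not pass the test. They are the RefSeq bases before the start site on GRCh38.p14, read on the strand of the gene, and BGN is shown only up to its first GENCODE exon. PRELP is at chr1:203475556-203475805, ASPN at chr9:92482507-92482756 and BGN at chrX:153494730-153494938. Capitals mark a CCAAT box (CCAAT) or a GC box (GGGCGG), on either strand.
PRELP: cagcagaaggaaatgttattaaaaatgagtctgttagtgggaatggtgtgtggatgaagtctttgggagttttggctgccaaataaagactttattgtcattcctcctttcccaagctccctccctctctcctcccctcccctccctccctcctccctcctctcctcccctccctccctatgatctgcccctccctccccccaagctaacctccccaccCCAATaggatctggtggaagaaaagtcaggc
ASPN: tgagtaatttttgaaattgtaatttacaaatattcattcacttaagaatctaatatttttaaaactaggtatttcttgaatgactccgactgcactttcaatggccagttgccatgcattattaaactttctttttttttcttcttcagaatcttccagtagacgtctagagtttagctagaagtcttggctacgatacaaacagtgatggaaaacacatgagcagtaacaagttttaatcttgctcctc
BGN: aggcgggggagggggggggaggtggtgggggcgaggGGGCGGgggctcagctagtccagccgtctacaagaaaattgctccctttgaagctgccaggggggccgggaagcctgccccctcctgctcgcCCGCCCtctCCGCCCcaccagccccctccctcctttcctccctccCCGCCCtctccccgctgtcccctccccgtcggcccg

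The 3 stretches differ in base composition. G and C made up 52.8% of the 250 bases before the PRELP start, 32.4% of those before ASPN and 74.0% of those before BGN, and 2.92% of all 35116 RefSeq promoter windows of that length were poorer in G and C than that of ASPN. A search of both strands for 4 motifs (CCAAT, the GC box GGGCGG, the TATA box TATAAA and the AP-1 site TGANTCA) found 1 CCAAT box before PRELP, 31 bases from the start, and 5 GC boxes before BGN, of which 1 lies beyond the stretch shown, and no matches overlapped. None of the 4 was found before ASPN. Over all windows 32.0% held a CCAAT box, 42.6% a GC box, 10.7% a TATA box and 6.57% an AP-1 site. A match is a description of the letters.

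In the 4-OHT libraries 6 of the 8 genes fell: PRELP, PODN, FMOD, ASPN, DCN and LUM. BGN did not pass the test and OGN was listed at or near 0 throughout. Over all 15272 genes tested, 29.9% were lower in 4-OHT, 19.8% higher and 49.6% called in either direction (limma, adjusted p under 0.05), so a call as such is common in this comparison. The median log2 fold change of the 7 tested genes was -1.09, against -0.09 for all tested genes. In 6 of the 8 genes all 4-OHT libraries lay below all DMSO libraries, as they did in 35.2% of the genes tested (59.0% were without overlap in either direction). Each log2 fold change below is the 4-OHT mean less the DMSO mean of log2(TPM + 1), a scale on which low genes appear to change less than they do, and each adjusted p comes from limma over all tested genes. No label says that the libraries came from separate cultures, so the p-values describe the spread between these libraries, which may be technical. In bulk RNA, fewer cells that make a transcript and less of it per cell cannot be told apart.

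Among the genes of the decorin and biglycan class, DCN, which binds collagen and TGF-beta, stood at 84.3, 101 and 84.8 TPM in the 4-OHT libraries and at 173, 199 and 186 TPM in the DMSO libraries. All 3 4-OHT libraries lay below all DMSO libraries, the highest of them at 101 against a lowest DMSO value of 173. The means were 90.0 ± 9.49 against 186 ± 12.8 TPM (SD, n = 3), 2.07-fold lower in 4-OHT (log2 fold change -1.04, SE 0.0848, adjusted p = 6.42e-05).

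BGN, the closest relative of decorin, was at 280.1, 279.1 and 279.5 TPM in 4-OHT and at 273, 259.8 and 179.5 TPM in DMSO. The 4-OHT libraries were nearly identical, with a coefficient of variation of 0.193%, while DMSO replicate 3 stood well below the other DMSO libraries and brought that group to 21.3%. Every 4-OHT value was above every DMSO value, as was the case in that direction for 23.8% of the tested genes. The difference did not pass the test (280 ± 0.54 against 238 ± 50.7 TPM, log2 fold change 0.26, 95% interval -0.09 to 0.60, adjusted p = 0.186). Without DMSO replicate 3 the log2 fold change was 0.07 (adjusted p = 0.218). The interval does not reach the fall seen in DCN.

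ASPN, which lacks the attachment site for a sugar chain and is known as an inhibitor of TGF-beta, stood at 1.39, 1.35 and 1.17 TPM in 4-OHT and 3.44, 4.47 and 3.85 TPM in DMSO. It was a low transcript in both groups, and the groups did not overlap. The level was 3-fold lower in 4-OHT (1.3 ± 0.12 against 3.92 ± 0.52 TPM, a log2 fold change of -1.09 with an SE of 0.145 and an adjusted p = 0.000744). With a pseudocount of 0.1 in place of 1 the log2 fold change was -1.51.

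**Figure D1:**
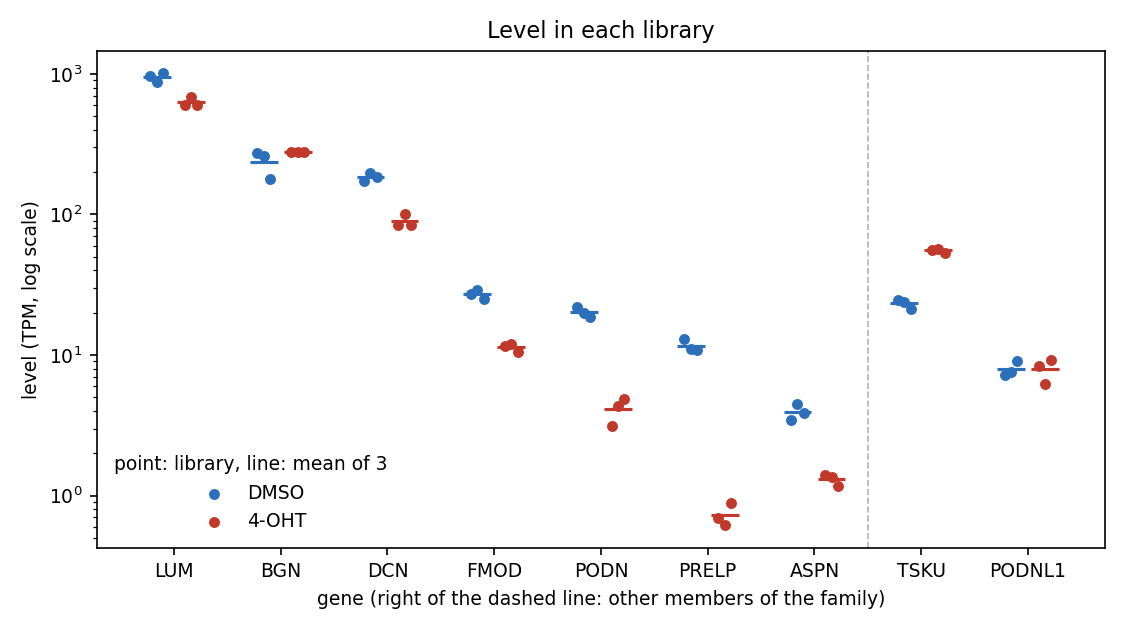
Level of each gene (x axis) in TPM on a log scale (y axis), with 1 point per library and a line at the mean of the 3 libraries of a group. OGN is not drawn because it was listed at 0 in 4 of the 6 libraries. The red 4-OHT points lie below the blue DMSO points in LUM, DCN, FMOD, PODN, PRELP and ASPN, above them in BGN and TSKU, and among them in PODNL1.

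Among the genes of the fibromodulin and lumican class, LUM was the highest of the 8 in each library, at 606, 691 and 604 TPM in 4-OHT and 962, 883 and 1010.1 TPM in DMSO. Lumican is a regulator of collagen fibrils, best known from the cornea. The groups did not overlap, and the fall was the smallest of the 6 (633 ± 49.7 against 952 ± 64.3 TPM, 1.5-fold lower, log2 fold change -0.59, SE 0.07, adjusted p = 0.000435). LUM ranked as number 170 of all entries by its mean level.

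FMOD, which helps collagen fibrils mature and guides their cross-linking, was at 11.5, 12.1 and 10.5 TPM in 4-OHT and 27.2, 29.1 and 25.2 TPM in DMSO. All 4-OHT libraries lay below the DMSO libraries, and the spread within each group was small. The level was 2.39-fold lower (11.3 ± 0.819 against 27.2 ± 1.95 TPM, a log2 fold change of -1.19 with an SE of 0.0865 and an adjusted p = 3.61e-05).

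PRELP, which binds heparan sulfate and collagen and is thought to anchor basement membranes to the tissue below, showed the largest fall of the 8. It was at 0.697, 0.615 and 0.888 TPM in 4-OHT and at 13.1, 11.0 and 10.8 TPM in DMSO. In 4-OHT the transcript was below the filter level in all 3 libraries, and in DMSO it was at a moderate level in all 3. The mean was 15.9-fold lower (0.733 ± 0.14 against 11.6 ± 1.24 TPM, a log2 fold change of -2.86 with an SE of 0.133 and an adjusted p = 4.32e-06), and only 0.275% of the tested genes had a lower log2 fold change on that scale. Over the 13 other settings the log2 fold change of PRELP ranged from -3.82 to -2.68. FMOD and PRELP, neighbours on chromosome 1, thus both fell, by different amounts. OPTC, the third gene of that group, was listed at 0 in all 4-OHT libraries and in 2 of the 3 DMSO libraries.

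OGN, of the osteoglycin class, was listed at 0.0367 TPM in 4-OHT replicate 3 and 0.029 TPM in DMSO replicate 1, and at 0 in the other 4 libraries. No fold change is given for it. PODN, of the podocan class and known for restraining the growth of smooth muscle cells, was at 3.12, 4.35 and 4.84 TPM in 4-OHT and 21.9, 19.8 and 18.7 TPM in DMSO. The groups were far apart, with the highest 4-OHT library well below the lowest DMSO library. The level was 4.9-fold lower (4.10 ± 0.887 against 20.1 ± 1.61 TPM, a log2 fold change of -2.06 with an SE of 0.146 and an adjusted p = 3.1e-05). In GENCODE 29, 467 of the 4900 exon bases of PODN are shared with an antisense gene and 280 with a pseudogene on the other strand, both of which were listed at 0.

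**Figure D2:**
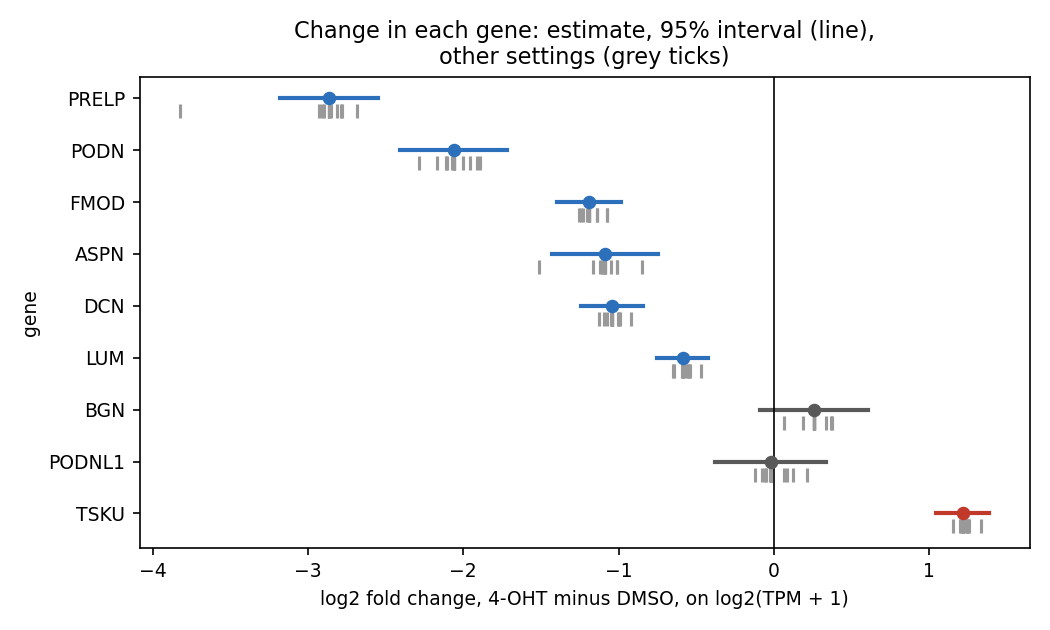
Log2 fold change of each gene, 4-OHT minus DMSO on log2(TPM + 1) (x axis), as a point with its 95% interval, blue where it fell, red where it rose and grey where it did not pass the test. Grey ticks show the same value under the other settings, which stayed below 0 for the 6 genes that fell and above 0 for BGN and TSKU. PRELP lies farthest to the left at -2.86, and the interval of BGN spans 0.

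The order of the mean levels was LUM, BGN, DCN, FMOD, PODN, PRELP, ASPN, OGN in the DMSO libraries. BGN and DCN did not keep 1 order in every DMSO library. BGN stood above DCN in DMSO replicate 1 (273 against 173 TPM) and replicate 2 (259.8 against 199 TPM). In DMSO replicate 3 it stood slightly below DCN (179.5 against 186 TPM). In the 4-OHT libraries the order was the same but for ASPN, which stood above PRELP with no overlap (lowest ASPN 1.17, highest PRELP 0.888 TPM). DCN in 4-OHT stood far below BGN, with no overlap (84.3 to 101 against 279.1 to 280.1 TPM).

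The sum of the 8 transcripts was 987, 1089 and 986 TPM in 4-OHT and 1474, 1406 and 1434 TPM in DMSO. The sum was lower in every 4-OHT library, at 0.102% of all TPM against 0.144%. LUM made up most of the sum in both groups, 62.0% ± 1.21 in 4-OHT and 66.2% ± 3.89 in DMSO. The share of BGN was 27.5% ± 1.59 in 4-OHT and 16.5% ± 3.46 in DMSO, and that of DCN 8.81% ± 0.403 and 13% ± 1.2. Those of PODN (0.402% ± 0.0875 and 1.40% ± 0.0895) and PRELP (0.0724% ± 0.0169 and 0.808% ± 0.0686) were small in both groups. The shares add to a whole, so a fall in the others raises that of BGN without a change in BGN.

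**Figure D3:**
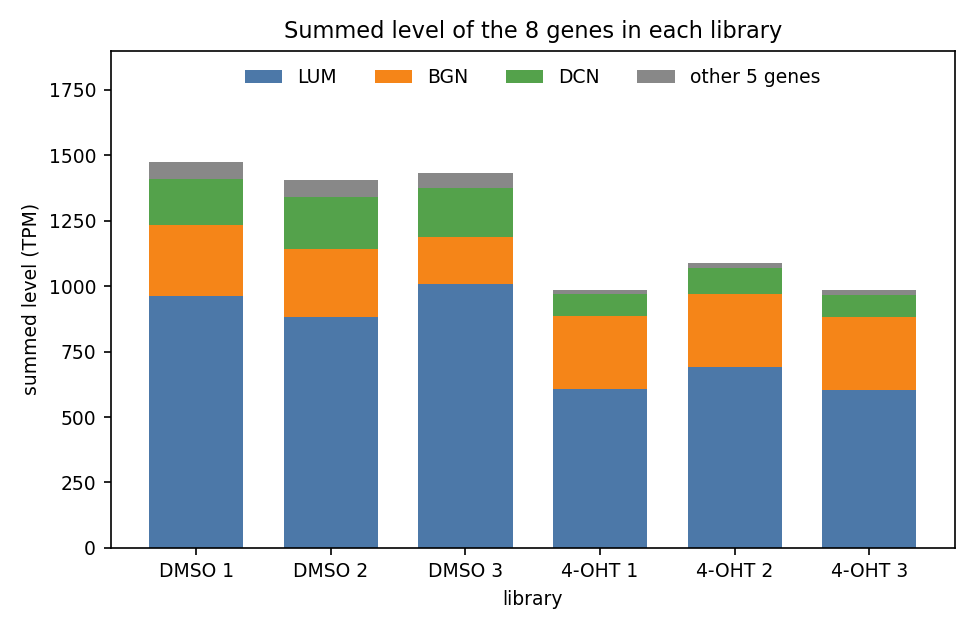
Summed level of the 8 genes in TPM (y axis, from 0) in each of the 6 libraries (x axis), stacked by gene. The 3 DMSO bars reach 1406 to 1474 and the 3 4-OHT bars 986 to 1089, with LUM as the largest part and a BGN part that is at least as large in 4-OHT as in DMSO.

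Ratios within a library do not depend on the scaling between libraries. BGN stood to DCN as 3.32, 2.76 and 3.30 in 4-OHT and as 1.58, 1.31 and 0.965 in DMSO. The ratio was higher in all 4-OHT libraries (3.13 ± 0.315 against 1.28 ± 0.307). LUM to DCN was 7.05 ± 0.182 against 5.14 ± 0.61, LUM to FMOD 55.9 ± 2.82 against 35.3 ± 4.87, and PODN to PRELP 5.67 ± 1.32 against 1.73 ± 0.0618. In all 4 ratios the groups did not overlap. An exact permutation test of each, 2-sided over the 6 libraries, gave p = 0.1, which is the smallest value that 3 against 3 libraries allow, so none could reach the threshold (0.1 also after adjustment over the 4).

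Of the 10 other genes of the family that were listed, TSKU and PODNL1 reached the filter. TSKU (tsukushi), a secreted antagonist of BMP and Wnt signals, was at 56.3, 56.8 and 53.4 TPM in 4-OHT and 24.7, 24 and 21.2 TPM in DMSO. All 4-OHT libraries lay above the DMSO libraries, the opposite of the direction of PRELP, PODN, FMOD, ASPN, DCN and LUM. It rose 2.38-fold (55.5 ± 1.86 against 23.3 ± 1.85 TPM, a log2 fold change of 1.22 with an SE of 0.0724 and an adjusted p = 1.31e-05). PODNL1, the closest relative of PODN, overlapped between the groups (7.91 ± 1.49 against 7.97 ± 0.952 TPM, log2 fold change -0.02, 95% interval -0.38 to 0.34, adjusted p = 0.931), with the sign turned under quantile normalization (0.21) and median-of-ratios scaling (0.09) and on leaving out 1 library (-0.12 to 0.12). PODNL1 shares 190 of its 4168 exon bases with DCAF15 on the other strand. The other 8 were below 1 TPM. CHADL stood at 0.273 ± 0.256 against 0.78 ± 0.153, ECM2 at 0.107 ± 0.0378 against 0.504 ± 0.184 and CHAD at 0.0356 ± 0.0544 against 0.404 ± 0.0869 TPM. With no filter on low values ECM2 and CHAD were called lower (limma, adjusted p = 0.0441 and 0.00962) and CHADL was not (0.122). CHAD shares 270 of its 1802 exon bases with ACSF2 on the other strand, which was itself at 15.0 against 26.5 TPM, and the part of those reads in the CHAD row was not tested. The remaining genes, KERA, EPYC, OMD, OPTC and NYX, were listed at 0 in most libraries.

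By the distance between their 6 centred log2 values, over 8880 candidate genes whose mean reached 10 TPM, the closest profiles to DCN were those of ANAPC15 (distance 0.0846) and SMIM10 (0.118). TMEM129 (0.0863) and SGPP1 (0.0999) lay closest to LUM, SMARCD3 (0.108) and SPOCD1 (0.144) to FMOD, and PIP4K2A (0.141) and HSD17B7 (0.186) to ASPN. TK1 (0.221) and BIRC5 (0.266) lay closest to PRELP, and TRIP13 (0.208) and EZH2 (0.216) to PODN. TK1 fell from 179 ± 9.44 to 22.8 ± 1.81 TPM. On log2(TPM + 1) its change was close to that of PRELP (-2.92 and -2.86). In TPM PRELP fell by a larger factor (15.9-fold, from 11.6 to 0.733 TPM). With 2 groups of 3 libraries, such a distance mostly reflects the difference between the groups.

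The enzymes that build the chondroitin and dermatan sulfate chains moved in both directions. Of 27 tested genes of the list, 13 rose, 4 fell and 10 did not pass the test, with a median log2 fold change of 0.29 against -0.09 over all genes. On leaving out 1 library at a time, 10 to 12 rose and 4 to 5 fell. B4GALT7 and CHST7, among those that rose, lost their call under 5 and 3 of the 13 other settings. In all genes tested the shares were 19.8% higher and 29.9% lower. The largest rise was that of CHST11, which sulfates chondroitin at the 4 position, at 17.2, 17.4 and 18.8 TPM in 4-OHT and 2.89, 2.49 and 2.52 TPM in DMSO. The groups were far apart (6.75-fold higher, log2 fold change 2.37, SE 0.097, adjusted p = 2.42e-06). SLC26A2, which takes up the sulfate, rose 3.1-fold (33.2 ± 0.886 against 10.7 ± 0.142 TPM, log2 fold change 1.54) and CSGALNACT2, which adds the first galactosamine of the chain, 2.67-fold (80.5 ± 0.977 against 30.2 ± 0.569 TPM, log2 fold change 1.39).

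The 4 genes of that list that fell are named here after their values were seen. They include DSEL and DSE, the epimerases that turn chondroitin into dermatan sulfate, and CHST14, which sulfates dermatan. DSEL was at 24, 23.4 and 24.4 TPM in 4-OHT and 43.3, 45.1 and 44.7 TPM in DMSO (log2 fold change -0.86, SE 0.0541, adjusted p = 1.7e-05). CHST14 was at 18.2, 20.0 and 18.3 TPM in 4-OHT and 32.6, 28.3 and 34.2 TPM in DMSO (-0.72, SE 0.0877, adjusted p = 0.000487), and DSE at 22.6, 23.6 and 24.4 against 28.9, 31.6 and 32.6 TPM (-0.38, SE 0.0704, adjusted p = 0.00349). In each of the 3 genes the groups did not overlap. The fourth was FAM20B, a kinase of the linker to the core protein (18.9 ± 0.842 against 26.9 ± 1.44 TPM, log2 fold change -0.49, adjusted p = 0.00115). CHST15, which adds a second sulfate to chondroitin, rose (35.1 ± 1.63 against 15.1 ± 0.971 TPM, log2 fold change 1.16, adjusted p = 1.78e-05), and so did UST, which sulfates the uronic acid of both kinds of chain (10.9 ± 1.06 against 8.47 ± 0.189 TPM, log2 fold change 0.33, adjusted p = 0.0249). The UST call was lost on leaving out any library but 4-OHT replicate 1 (adjusted p = 0.0512 to 0.0786). Of the xylosyltransferases that start the chain, XYLT2 rose (50.8 ± 0.517 against 38.7 ± 1.56 TPM, adjusted p = 0.000914) and XYLT1 did not pass the test (11.4 ± 0.555 against 12.7 ± 0.443 TPM, adjusted p = 0.155).

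**Figure D4:**
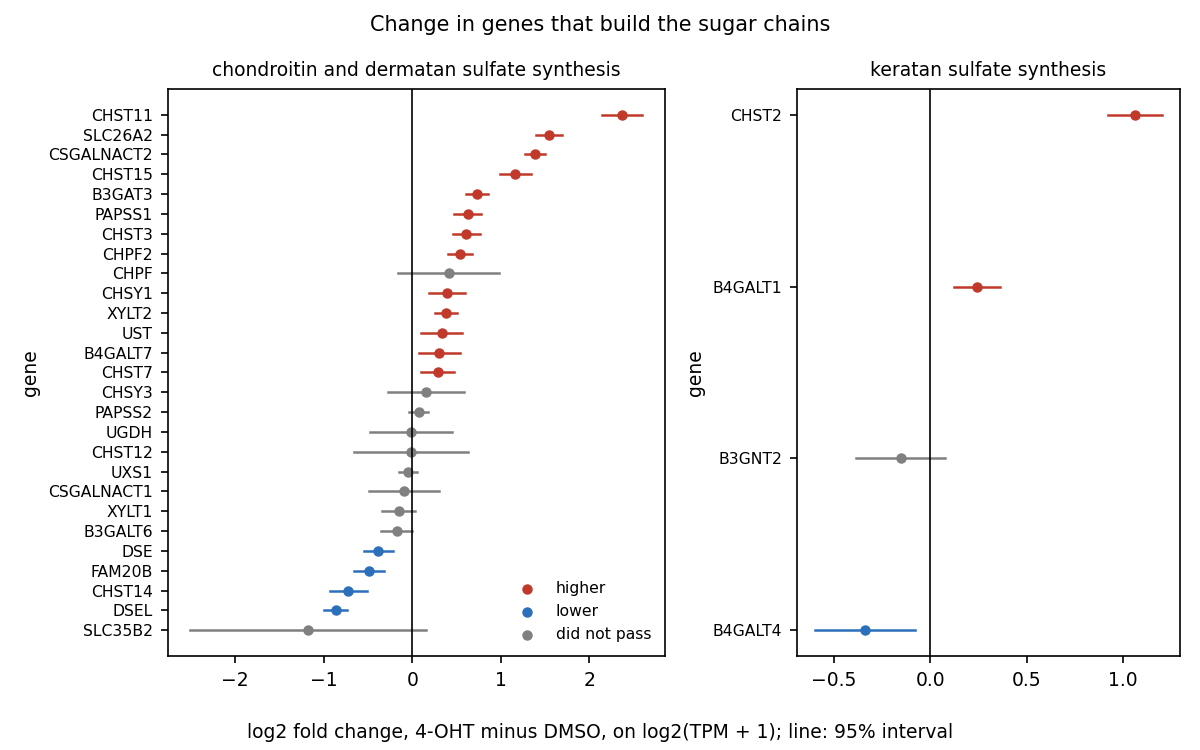
Log2 fold change, 4-OHT minus DMSO on log2(TPM + 1) (x axis), with its 95% interval, for the tested genes of chondroitin and dermatan sulfate synthesis (left) and keratan sulfate synthesis (right), red where higher, blue where lower and grey where the test was not passed. CHST11 lies highest at 2.37, and DSEL, CHST14, FAM20B and DSE are the blue points of the left panel.

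Of the keratan sulfate list 4 of 7 genes were tested. CHST2, a sulfotransferase, rose (38.4 ± 0.592 against 17.8 ± 0.708 TPM, log2 fold change 1.06, adjusted p = 1.01e-05), and so did the galactosyltransferase B4GALT1 (96.4 ± 1.76 against 81.3 ± 3.99 TPM, log2 fold change 0.24, adjusted p = 0.00608). B4GALT4 fell (40.3 ± 0.708 against 51.7 ± 8.08 TPM, log2 fold change -0.34, adjusted p = 0.0368), a call that was lost under 8 of the 13 other settings, among them leaving out any library but DMSO replicate 3. Leaving out that replicate gave -0.47 (adjusted p = 0.0022). CHST1 and CHST6, the other sulfotransferases of keratan sulfate, and B3GNT7, which extends the chain, were below 1 TPM.

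The collagens to which the family binds also moved in both directions. Of 12 tested, 5 fell and 4 rose (median log2 fold change -0.07, or 0.04 under median-of-ratios scaling, with 4 lower and 5 higher). Over all tested genes 29.9% fell and 19.8% rose. COL14A1, a collagen of the fibril surface, fell most, from 6.22, 5.86 and 7.22 TPM in DMSO to 0.594, 0.978 and 0.80 TPM in 4-OHT, with no overlap and above the filter through the DMSO libraries alone (log2 fold change -2.06, SE 0.15, adjusted p = 3.66e-05). COL3A1 was 1.88-fold lower (477 ± 6.54 against 895 ± 5.35 TPM, log2 fold change -0.91). COL5A1, which starts fibrils, rose (440.2 ± 19.2 against 234 ± 6.11 TPM, log2 fold change 0.91, adjusted p = 5.41e-06). The large proteoglycan VCAN (versican), the only tested gene of its list of 4, rose 3.22-fold (adjusted p = 1.77e-05), while ACAN, BCAN and NCAN were below 1 TPM.

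Of the growth factors that these proteins bind, 5 of 7 tested genes rose and 1 fell (median log2 fold change 1.13). Of all tested genes 19.8% rose and 29.9% fell (median -0.09). BMP2, a bone morphogenetic protein, was at 38.7, 38.3 and 36.6 TPM in 4-OHT and 6.48, 6.80 and 6.51 TPM in DMSO, with no overlap (log2 fold change 2.36, SE 0.0679, adjusted p = 5.6e-07). TGFB2, held by decorin and others, rose 4.08-fold (44.2 ± 1.87 against 10.8 ± 0.715 TPM, log2 fold change 1.94), and CCN4, also called WISP1, 2.77-fold (21.1 ± 0.13 against 7.63 ± 0.639 TPM, log2 fold change 1.36). TGFB1 was the member that fell (58.7 ± 2.94 against 75.1 ± 2.44 TPM, log2 fold change -0.35, adjusted p = 0.00174).

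Of the receptors 6 of 9 were tested, of which 3 rose and 3 fell (2 under median-of-ratios scaling, where LRP1 was not called). Among all tested genes 19.8% rose and 29.9% fell. TLR4, through which free biglycan and decorin can signal to the innate immune system, was at 0.199, 0.189 and 0.394 TPM in 4-OHT and 3.24, 4.42 and 3.41 TPM in DMSO. The groups did not overlap, and the gene reached the filter through its DMSO libraries alone (log2 fold change -1.89, SE 0.176, adjusted p = 0.000123). Its partner CD14 was at 5.24 ± 1.7 against 2.14 ± 0.822 TPM (log2 fold change 0.99, adjusted p = 0.0187), a call lost with no filter on low values (adjusted p = 0.0902) and without 4-OHT replicate 1, 4-OHT replicate 2 or DMSO replicate 2 (0.0507, 0.0574 and 0.0524). TLR2 was below 1 TPM in both groups. MET, a receptor that decorin inhibits, fell (13.8 ± 1.93 against 26.8 ± 0.471 TPM, log2 fold change -0.92, adjusted p = 0.000286). EGFR, another target of decorin, was at 57.0 ± 4.25 against 48.8 ± 1.47 TPM (log2 fold change 0.22, adjusted p = 0.0294), a call lost under 6 of the 13 other settings, among them leaving out 4-OHT replicate 3 or any 1 DMSO replicate (adjusted p = 0.0524 to 0.0851).

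Proteases that cut these proteins rose in 4 of 7 tested genes, with none lower, where 19.8% of all tested genes rose and 29.9% fell. MMP14, a membrane-bound metalloproteinase, was at 1820, 1852 and 1844 TPM in 4-OHT and 513, 577 and 533 TPM in DMSO, with no overlap (3.4-fold higher, log2 fold change 1.76, adjusted p = 3.92e-07). MMP3 rose by 1.59 log2 units and ADAMTS5, an aggrecanase, by 1.31 (7.49 ± 0.214 against 2.44 ± 0.142 TPM, adjusted p = 6.14e-05). BMP1, which removes the propeptide of biglycan, did not pass the test (48.4 ± 5.38 against 54.9 ± 2.84 TPM, log2 fold change -0.18, adjusted p = 0.124) but did without 4-OHT replicate 3 (-0.26, adjusted p = 0.0333). Over the lists of partners, chain enzymes and other family genes, 66 of 90 genes were tested, of which 33 rose and 14 fell, beside 19.8% higher and 29.9% lower over all genes tested.

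**Figure D5:**
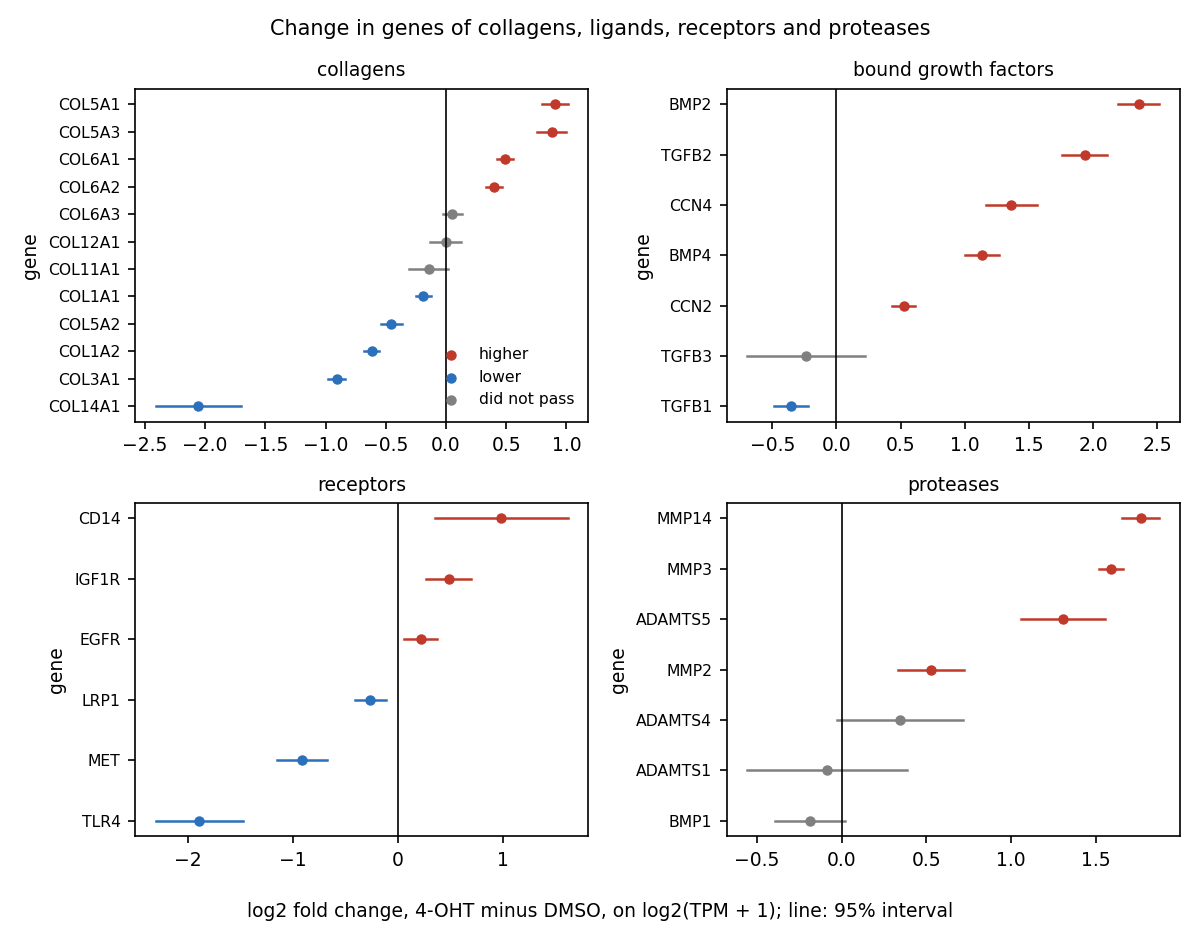
Log2 fold change, 4-OHT minus DMSO on log2(TPM + 1) (x axis), with its 95% interval, for tested collagens, bound growth factors, receptors and proteases, red where higher, blue where lower and grey where the test was not passed. Collagens and receptors lie on both sides of 0, while 5 of the 7 growth factors and 4 of the 7 proteases are red.

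The labelled cell type was checked against markers. All 12 fibroblast markers were tested, 3 of which rose and 7 fell, beside 19.8% and 29.9% of all genes tested. Their summed level was 20714 to 21152 TPM in 4-OHT and 21981 to 22740 TPM in DMSO. The largest part of that sum was VIM, at 11537 ± 136 against 10399 ± 262 TPM. FAP, TWIST1 and FBLN1 fell most among the 12 (by 1.01, 1.00 and 1.00 log2 units). PDGFRB, THY1 and VIM rose (by 0.71, 0.42 and 0.15 log2 units), and the VIM call was lost under 3 of the 13 other settings. Of 7 smooth muscle and pericyte markers in the table, 5 were tested, 3 fell (CNN1 by 2.50 and TAGLN by 1.56 log2 units among them) and 1 rose (RGS5, log2 fold change 2.57). Their sum was 802 to 860 TPM against 1763 to 2128 TPM, and MYH11 and DES were below 1 TPM. The part of these changes in smooth muscle and pericyte markers in the fall of the 6 genes was not tested. The 6 endothelial markers summed to 1.94 to 3.53 TPM in 4-OHT and 0.814 to 0.962 TPM in DMSO, with no overlap, and none reached a mean of 1 TPM over the 6 libraries. Among them TIE1 was at 1.39 ± 0.668 against 0.147 ± 0.029 TPM and PECAM1 at 0.976 ± 0.197 against 0.334 ± 0.141 TPM, and with no filter on low values both were called higher (limma, adjusted p = 0.0413 and 0.0456), while CDH5 was at or near 0. The part of these markers in the results was not tested. Of the immune markers CD14 and CD68 reached that mean, while PTPRC, CD3E, LYZ, CD79A and NKG7 did not. Of 8 epithelial markers EPCAM and KRT10 reached it, with KRT1 at 0 in all libraries. EPCAM did so through its DMSO libraries alone (0.60 ± 0.135 against 1.55 ± 0.132 TPM, adjusted p = 0.0137, lost under quantile normalization with 0.0596), and KRT10 did not pass the test. Of 7 chondrocyte markers SOX9 rose (log2 fold change 1.67) and MATN3 fell (-0.98), while COL2A1, ACAN, COMP and CNMD were below 1 TPM and COL9A1 was listed at 0. HRAS, whose row does not part the introduced from the cells' own transcript, was at 1281 ± 51.1 against 935 ± 24.7 TPM.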

How the data were processed

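Bulk RNA-seq of 6 libraries (3 per group) was analysed from a table of TPM that the authors deposited, 59050 entries by gene symbol. The tools named, per the submitters' processing notes, are Trim Galore (0.6.6), STAR and StringTie, and the build is GRCh38. Which gene annotation and strand setting served is not given in the sources used here. Each library took 1 µg of total RNA, per the labels. The deposited column of DMSO replicate 3 is formally a score, since 1 of its values lies slightly below 0; that value was set to 0 and the column taken as TPM. The libraries summed to 998367 to 998843 TPM. TPM keep no read depth, so no detection limit was computed.

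Genes whose mean over the 6 libraries reached 1 TPM entered a limma fit (version 3.58.1, R 4.3.3) on log2(TPM + 1), with a variance trend, 2-sided, and Benjamini-Hochberg adjustment over the 15272 genes tested (threshold 0.05). The fit was tested on simulated data. Python 3.11.15, scipy 1.17.1 and matplotlib 3.10.9 were used for tables, permutation tests and plots. RefSeq promoters matched 6 of the 8 genes (not DCN and LUM). MCAM is not analysed here.

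Genes are named if they are family members, among the 3 largest called changes of a list, or among the 2 profiles closest to a called member by Euclidean distance; others are named after their values were seen. The members and lists were chosen with earlier results of these data known. Alternatives changed the pseudocount, filter, scaling, variance trend, replicate block and set of libraries. Same-numbered libraries are not said to share a culture, so the main comparison has no block.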

Additional observations from a re-analysis of the deposited data

How the results depend on the processing

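DCN, LUM, FMOD, PRELP and PODN kept their direction and their call under all 13 alternative settings. ASPN did so under the 12 in which it was tested, and with a filter of at least 5 TPM, which removes it, 5 of the 8 genes were called lower instead of 6. BGN was not called under any of them (log2 fold change 0.07 to 0.38, adjusted p 0.0682 to 0.428). On leaving out 1 library at a time, the number called lower stayed at 6. With no filter on low values more genes were tested, and 18.6% of them were called instead of 49.6%. The calls were then 2726 higher and 4108 lower, against 3018 and 4561. Median-of-ratios scaling moved the median of all tested genes from -0.09 to 0.01 and the calls from 3018 higher and 4561 lower to 4036 and 3591 (3650 and 3604 under quantile normalization), while the 6 genes remained called. Of 86 other genes tested from the lists (HRAS included), 65 stayed on the same side of the threshold under every setting that tested them; the sign of some that were not called, such as PODNL1, turned. ADAMTS1 was at 63.3 ± 18 against 65.2 ± 1.54 TPM, with a log2 fold change of -0.08 that ranged from -0.23 to 0.17 on leaving out 1 library, the last (adjusted p = 0.0467) without 4-OHT replicate 3. The cause was not tested. With the replicate number as a block 6 of the 8 genes were again called lower, and 2819 genes were higher and 4246 lower over all. The correlations of deviations between same-numbered libraries were 0.0475, 0.00549 and 0.00664, and not every library correlated best with its own number. Values so near 0 cannot show whether same-numbered libraries shared a culture, which no label says. Read depth is unknown, which limits what can be said of OGN and other genes near 0.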

Other observations

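SLC35B2, the transporter that brings activated sulfate into the Golgi apparatus, was at 79.6, 16.8 and 86.6 TPM in 4-OHT and 113, 114 and 110.2 TPM in DMSO, with 4-OHT replicate 2 far below the other libraries. The difference did not pass the test with all libraries (adjusted p = 0.126) and did without that replicate (log2 fold change -0.43, adjusted p = 0.0018). CHPF, which extends chondroitin chains, was at 43.5 TPM in DMSO replicate 1 and 89.1 and 77.3 TPM in the other DMSO libraries, against 91.5, 95 and 82.1 TPM in 4-OHT.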
